A study of Mus musculus with 2 samples.

Results

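The genes described here are the proteins of the splicing machinery that carry the symbol families Snrp, Sf3a, Sf3b, Srsf, Hnrnp and Lsm, measured in the thymus of wild-type (WT) and miR-146a transgenic (Tg) mice. Every gene whose mouse symbol begins with one of these prefixes and a family suffix was taken, which gave 65 of 23296 named genes, and each gene was represented by the RefSeq transcript that had its highest mean RPKM. Of these, 63 reached a mean of at least 1 RPKM, as did 11095 genes in all, and are called measured below. The other 2 were Snrpn, at 0.133 RPKM in WT and 0.063 RPKM in Tg, and Srsf12, at 0.984 and 0.552 RPKM.

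Thymus RNA from Balb/c mice of 5 to 6 weeks of age was sequenced as 1 WT library and 1 Tg library, and each library pooled the thymuses of 1 male and 1 female. The Tg mice expressed miR-146a systemically, so every cell type of the thymus may have carried the transgene, and the promoter that drove it is not given in the sources used here. WT and Tg mice were bred as separate lines, WT from purchased animals, so line and transgene cannot be told apart. RPKM, a read count scaled to transcript length and to the mapped reads of the library, was deposited for polyadenylated RNA. It rested on 14522669 fragments in WT and 15396696 in Tg. With 1 library per genotype there was no spread between animals and no test between genotypes. The intervals given below are exact binomial intervals at 95% on recovered fragments and show counting error alone.

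Pre-mRNA splicing is carried out by small nuclear ribonucleoproteins (snRNPs), in which an RNA such as U1, U2 or U6 is held by a ring of Sm or LSm proteins together with proteins particular to each particle. U1 recognises the 5′ splice site and U2, with its SF3A and SF3B subunits, the branch point. SR proteins mostly promote the use of the exons they bind, whereas hnRNP proteins coat nascent RNA and often silence exons, and in T cells they set the isoforms of receptors such as Ptprc (CD45).

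In the Tg library most of these genes lay within 1.5-fold of the WT level. At the mark of 1.5-fold used here, 2 of the 63 measured genes were higher in Tg (Lsm2 and Snrpa), 3 were lower (Lsm5, Snrpb2 and Snrpe) and 58 lay within it, and none differed by more than 2-fold. These shares, 3.17% higher and 4.76% lower, stood below those of all measured genes, of which 7.74% were higher and 11.0% lower. The 2 sets were not matched for level, as the median in WT was 74.8 RPKM over the splicing genes and 11.3 RPKM over all measured genes. When both libraries were rescaled to 1 sum of RPKM, which moved the median of all measured genes from 0.03 to 0.15 on the log2 scale, 10 splicing genes (15.9%) were higher and 2 lower, beside 11.8% and 7.93% of all measured genes. Snrpe was then no longer past the mark, and Hnrnph3, Hnrnpm, Sf3a1, Sf3a2, Sf3b4, Snrpa1, Srsf4 and Srsf9 were past it on the higher side. The median log2(Tg/WT) was 0.22 over the splicing genes and 0.03 over all measured genes, and 66.7% of the splicing genes against 53.5% of all measured genes had the larger value in Tg. The counting interval of the ratio lay above 1 for 40 splicing genes, below 1 for 17 and included 1 for 6. No such count over all measured genes is given here, so it does not set the splicing genes apart. Rescaling to 1 sum moved 45 of the 63 out of their interval. Genes are not independent replicates, so these shares describe a pair of libraries.

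**Figure D1:**
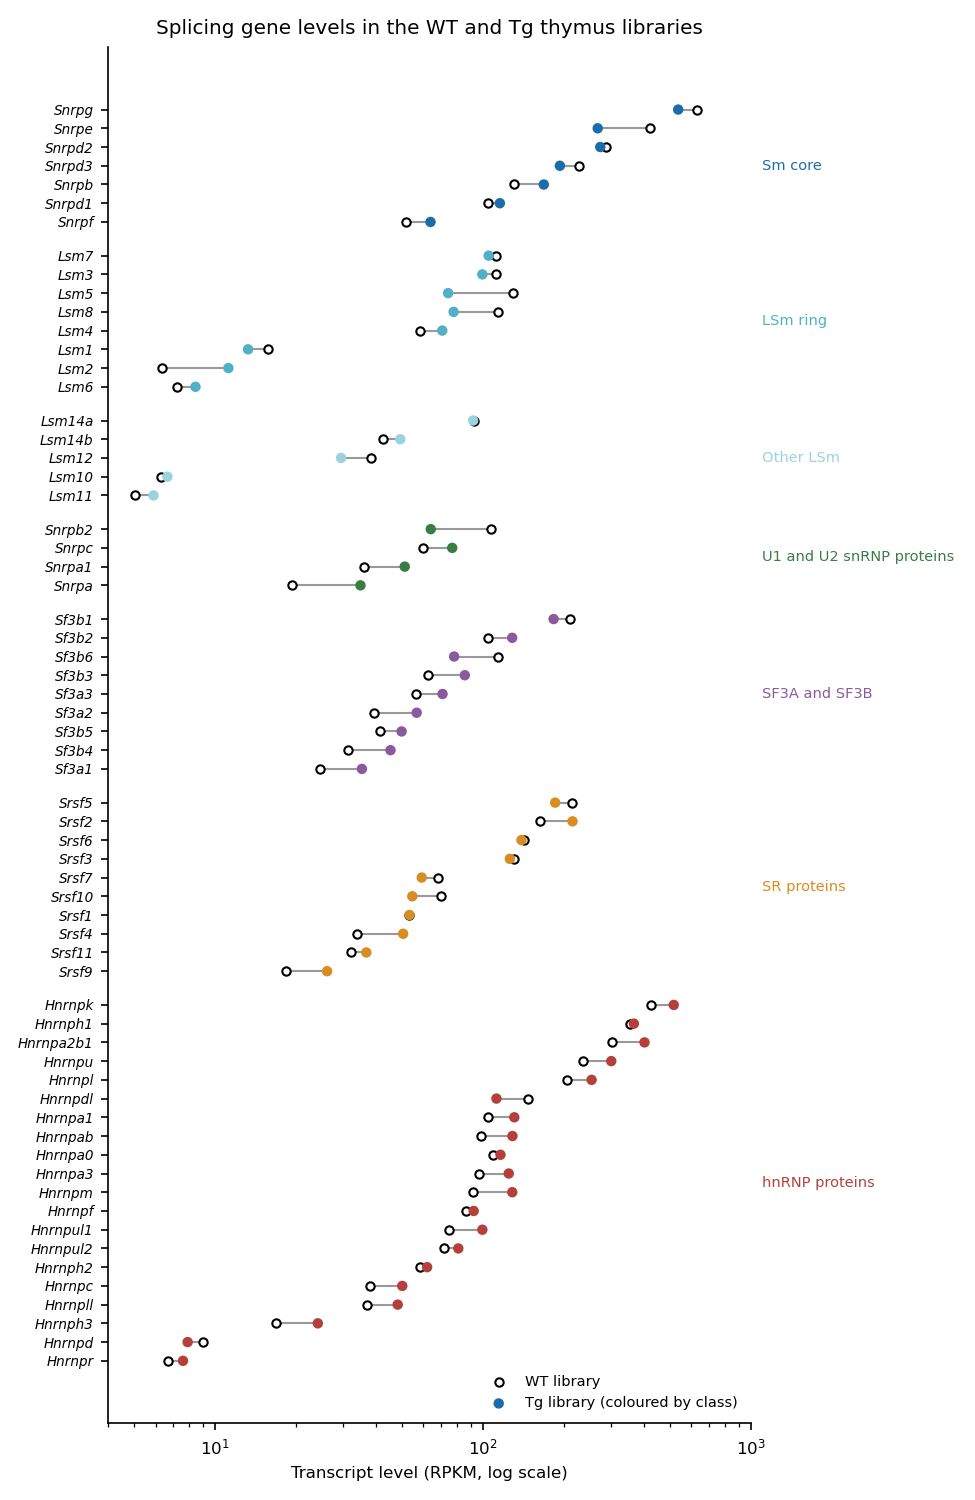
Level of each measured splicing gene in RPKM (log axis), by family, with the WT library as open points and the Tg library as filled points. Snrpg stands highest at 632 RPKM in WT and 536 RPKM in Tg, and in most genes both points lie close together.

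The 5 genes past 1.5-fold belonged to the snRNP families, and both directions were found within a single particle or ring. Snrpb2 encodes the B″ protein of U2, which binds the U2 RNA, and stood at 107 RPKM in WT and 63.9 RPKM in Tg, from 3247 and 2057 fragments, a ratio of 0.598 (interval 0.565 to 0.632). The fragments and interval of Snrpb2 rest on a length chosen among several possible ones. Snrpa encodes the A protein of U1, its closest relative, which binds the U1 RNA, and stood at 19.4 RPKM in WT and 34.9 RPKM in Tg, from 364 and 693 fragments, a ratio of 1.80 (interval 1.58 to 2.04). Snrpb2 was therefore 5.50 times the level of Snrpa in WT and 1.83 times in Tg, a comparison per length of transcript. In GRCm38 the Snrpb2 gene lies on chromosome 2 from 143063069 to 143072052 and that of Snrpa on chromosome 7 from 27187006 to 27196271.

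Snrpe, the SmE protein of the Sm ring, was at 422 RPKM in WT and 268 RPKM in Tg, a ratio of 0.636 (interval 0.601 to 0.673) from 3013 and 2032 fragments. Lsm5, a member of the LSm rings, was at 129 and 74.2 RPKM, a ratio of 0.575 (interval 0.517 to 0.638) from 939 and 572 fragments. Lsm2, a subunit of the same rings, was at 6.35 and 11.2 RPKM, a ratio of 1.77 (interval 1.34 to 2.35) that rests on 80 and 150 fragments. Their genes lie on chromosome 1 (Snrpe, 133603871 to 133610280), chromosome 6 (Lsm5, 56701063 to 56704699) and chromosome 17 (Lsm2, 34981854 to 34985891). The gene nearest to the mark from inside it was Srsf4, at a ratio of 1.49, followed by Lsm8 and Sf3b6, which were both 1.46-fold lower, and the called gene nearest to it was Snrpe, at 1.57-fold lower.

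The promoters of these 5 genes are shown because they are the members that stand apart in either direction. Each stretch runs from 250 bases before to 50 bases after the RefSeq start in build GRCm38.p6. For Snrpa that start lies inside the gene bounds given above, which run to 27196271. Capitals mark CCGGAAG or its reverse complement CTTCCGG, 1 form of the sites that ETS factors bind.
Snrpe promoter, chr1:133610231-133610530, - strand: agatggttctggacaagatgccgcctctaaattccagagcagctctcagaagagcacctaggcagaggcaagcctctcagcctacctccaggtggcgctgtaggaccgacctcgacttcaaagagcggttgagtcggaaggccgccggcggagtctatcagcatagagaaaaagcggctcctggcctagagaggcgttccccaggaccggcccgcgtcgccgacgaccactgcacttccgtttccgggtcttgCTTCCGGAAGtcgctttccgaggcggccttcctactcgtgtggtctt
Lsm5 promoter, chr6:56704650-56704949, - strand: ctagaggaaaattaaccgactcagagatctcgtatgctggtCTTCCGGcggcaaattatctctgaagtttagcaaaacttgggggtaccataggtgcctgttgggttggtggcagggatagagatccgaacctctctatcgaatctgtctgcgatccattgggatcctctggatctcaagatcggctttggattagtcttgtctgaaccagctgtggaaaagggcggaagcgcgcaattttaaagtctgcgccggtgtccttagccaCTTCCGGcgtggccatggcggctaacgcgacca
Snrpb2 promoter, chr2:143062819-143063118, + strand: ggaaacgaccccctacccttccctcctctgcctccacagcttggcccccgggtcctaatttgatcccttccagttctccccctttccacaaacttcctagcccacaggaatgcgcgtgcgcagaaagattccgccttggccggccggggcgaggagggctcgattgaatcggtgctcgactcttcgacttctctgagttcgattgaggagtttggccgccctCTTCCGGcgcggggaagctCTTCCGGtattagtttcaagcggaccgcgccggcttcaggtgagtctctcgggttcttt
Snrpa promoter, chr7:27195711-27196010, - strand: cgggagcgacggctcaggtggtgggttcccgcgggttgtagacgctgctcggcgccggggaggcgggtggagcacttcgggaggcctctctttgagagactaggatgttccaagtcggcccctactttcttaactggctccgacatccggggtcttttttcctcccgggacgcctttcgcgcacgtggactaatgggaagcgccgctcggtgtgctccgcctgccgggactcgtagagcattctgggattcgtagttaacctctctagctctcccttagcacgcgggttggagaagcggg
Lsm2 promoter, chr17:34981604-34981903, + strand: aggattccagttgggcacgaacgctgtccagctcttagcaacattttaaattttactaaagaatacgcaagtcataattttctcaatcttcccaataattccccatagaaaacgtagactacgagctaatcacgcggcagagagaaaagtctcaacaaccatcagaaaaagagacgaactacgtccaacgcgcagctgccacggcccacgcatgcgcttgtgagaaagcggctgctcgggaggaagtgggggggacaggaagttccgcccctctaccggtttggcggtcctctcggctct

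The 3 genes that were lower in Tg each held the motif at 2 positions, which overlap in Snrpe, and the 2 genes that were higher held none of this form. Other forms that ETS factors may bind were not searched for. The Lsm2 and Snrpa stretches do hold ggaag without the leading cc. The motif was chosen after the values and sequences had been seen, and a match is a stretch of letters rather than a shown binding site. It was found in 17 of the 54 measured splicing genes with a promoter in the table (31.5%) and in 20.9% of the 8776 measured genes with one. Across the 54 splicing genes the median log2(Tg/WT) was 0.10 with the motif and 0.22 without it, and across all 8776 genes 0.05 and 0.04. Sf3a1, Sf3a2 and Srsf4, whose values were larger in Tg, hold it too. Of the other sequences searched on both strands, CCAAT was present in 48.1% of the splicing promoters and 39.6% of all, CACGTG in 9.26% and 10.5%, TTTCCCGC or TTTGGCGC in 5.56% and 3.30%, and TATAAA in 9.26% and 7.02%.

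**Figure D2:**
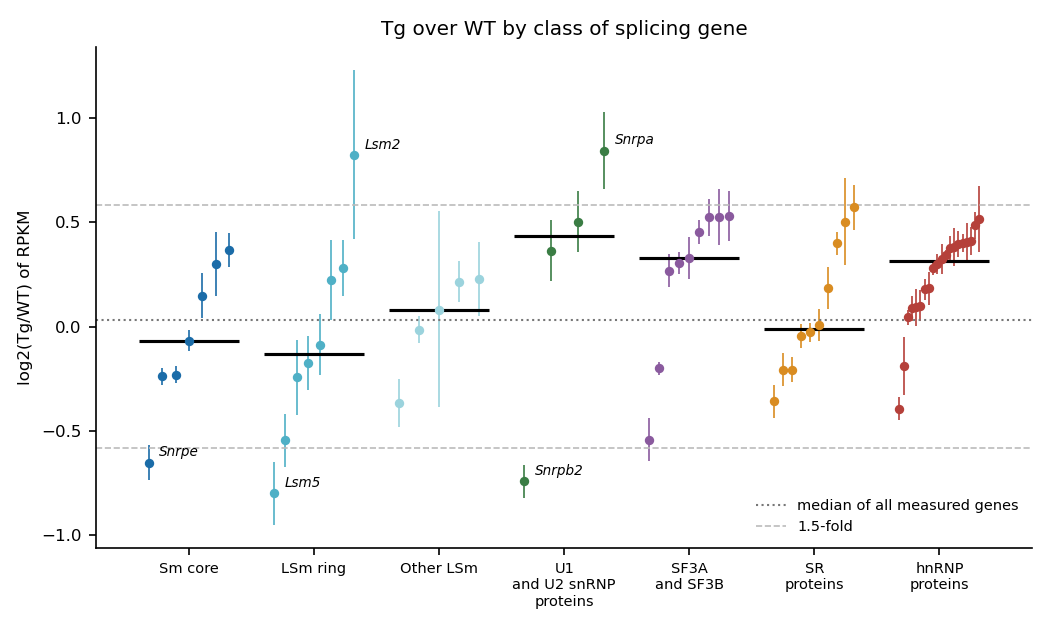
log2(Tg/WT) of each measured splicing gene by family, with the counting interval at 95% as a bar, the family median as a black line, the median of all measured genes dotted and 1.5-fold dashed. Only Lsm2, Snrpa, Lsm5, Snrpb2 and Snrpe lie past the dashed lines, and 18 of 20 hnRNP genes lie above 0.

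The Sm core is the ring of 7 proteins that is loaded onto the U1, U2, U4 and U5 RNAs in the cytoplasm. Of its 8 genes, 7 were measured and Snrpn, the neuronal relative of Snrpb, was not. Snrpg (SmG) was the most abundant of all the splicing genes, at 632 RPKM in WT and 536 RPKM in Tg, a ratio of 0.847 (interval 0.824 to 0.871). Snrpd2 stood at 287 and 274 RPKM and Snrpd3 at 228 and 194 RPKM, both lower in Tg by less than 1.5-fold. On the other side lay Snrpb (SmB) at 131 and 169 RPKM, Snrpd1 at 104 and 116 RPKM, and Snrpf (SmF) at 51.8 and 63.8 RPKM. The 4 genes with the higher WT level were thus the ones with smaller values in Tg, and the 3 with the lower WT level had larger values.

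Although the ring takes up each Sm protein in equal number, the transcripts differed 12.2-fold between Snrpg and Snrpf in WT and 8.40-fold in Tg. SmE, SmF and SmG enter the ring as a preformed trimer, and among their transcripts Snrpe was 8.14 times Snrpf in WT and 4.21 times in Tg. Against Snrpg the ratio of Snrpe passed from 0.667 to 0.501. The median log2(Tg/WT) of the Sm core was -0.067, a direction that turned to 0.053 when both libraries were rescaled to 1 sum of RPKM, and the summed RPKM of the ring was 0.873 of the WT sum. Reads that map to several places were not counted, so levels of Sm genes with processed pseudogenes, such as Snrpe and Snrpg, are uncertain.

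The LSm rings share Lsm2 to Lsm7. With Lsm8 they form the nuclear ring that holds the 3′ end of the U6 RNA, and with Lsm1 the cytoplasmic ring that promotes decapping and decay of mRNA. Lsm8, the nuclear subunit, was at 114 RPKM in WT and 77.8 RPKM in Tg, a ratio of 0.685 (interval 0.628 to 0.747). Lsm1, the cytoplasmic subunit, was at 15.7 and 13.3 RPKM, and so Lsm1 was 0.138 of Lsm8 in WT and 0.171 in Tg. Both lay within 1.5-fold.

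Among the shared subunits, Lsm7 stood at 112 RPKM in WT and 105 RPKM in Tg with an interval of the ratio that included 1 (0.851 to 1.04), and Lsm3 at 112 and 99.5 RPKM. Lsm4 was at 58.0 and 70.5 RPKM and Lsm6 at 7.25 and 8.46 RPKM, larger in Tg by less than 1.5-fold. Together with Lsm5 and Lsm2, given above, this leaves 3 of the 8 LSm ring genes with the larger value in Tg. From the highest to the lowest of Lsm2 to Lsm8 the levels spanned 20.3-fold in WT (Lsm5 to Lsm2) and 12.4-fold in Tg (Lsm7 to Lsm6). The median log2(Tg/WT) over the 8 genes was -0.13, which became -0.0099 when the libraries were rescaled to 1 sum and 0.13 after a running median over transcript length was subtracted.

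Lsm2 had 4 listed transcripts, and their log2(Tg/WT) ran from 0.20 to 1.24 on 40 to 82 fragments in WT. The size of its difference therefore depends on the transcript, while the direction was shared by all 4. Transcripts of the same gene overlap and are not independent measurements.

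Of the other LSm genes, Lsm14a and Lsm14b, which act in translational repression and P-bodies, stood at 92.9 and 91.9 RPKM and at 42.3 and 49.2 RPKM in WT and Tg. Lsm12 was at 38.1 and 29.6 RPKM. Lsm10, at 6.28 and 6.65 RPKM, and Lsm11, at 5.04 and 5.90 RPKM, replace 2 Sm proteins in the U7 snRNP that processes histone mRNA. None of the 5 was past 1.5-fold, and their median log2(Tg/WT) was 0.08, which turned to -0.015 with a sum or mean over the transcripts of each gene and at a mean of at least 10 RPKM.

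The 4 proteins particular to U1 or U2 covered nearly the whole range of the splicing genes, from -0.74 to 0.84 on the log2 scale. Besides Snrpb2 and Snrpa, Snrpc, the C protein of U1, which stabilises the pairing of U1 with the 5′ splice site, was at 59.7 RPKM in WT and 76.8 RPKM in Tg. Snrpa1, the A′ protein of U2 and the partner of the B″ protein, was at 36.0 and 51.1 RPKM, a ratio of 1.42. The transcript of Snrpb2 was thus 2.97 times that of its partner Snrpa1 in WT, and in Tg they were nearer to each other. Both listed Snrpa transcripts had like values of log2(Tg/WT), 0.84 and 0.90.

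The SF3A and SF3B subunits of U2 bind around the branch point. All 9 genes were measured, none past 1.5-fold as deposited (3 higher after rescaling to 1 sum), and 7 had the larger value in Tg. The most abundant was Sf3b1, which clamps the branch site helix, at 211 RPKM in WT and 184 RPKM in Tg. Sf3b6 (p14), which contacts the branch point adenosine, was at 114 and 78.1 RPKM, a ratio of 0.686 (interval 0.639 to 0.736). These were the 2 subunits with smaller values in Tg.

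Sf3b2 stood at 104 RPKM in WT and 129 RPKM in Tg, and Sf3b3 at 62.5 and 85.6 RPKM. The 7 subunits other than Sf3b1 and Sf3b6 had log2(Tg/WT) between 0.27 and 0.53 with a median of 0.45, a grouping made after the values were seen. Over all 9 genes the median was 0.33. The level of Sf3b6 relative to Sf3b1 was 0.539 in WT and 0.425 in Tg, and the span from Sf3b1 to Sf3b4, the highest and lowest SF3B subunits, was 6.72-fold and 4.06-fold.

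The SR proteins showed no common direction. Of 11 genes 10 were measured, none was past 1.5-fold as deposited (2 higher after rescaling to 1 sum), 5 had the larger value in Tg, and the median log2(Tg/WT) was -0.01, or 0.11 when both libraries were rescaled to 1 sum. Srsf5 was the most abundant in WT, at 215 RPKM against 186 RPKM in Tg, and Srsf2 (SC35) the most abundant in Tg, at 216 RPKM against 164 RPKM in WT. Srsf6 stood at 142 and 139 RPKM and Srsf3, which also couples splicing to mRNA export, at 130 and 126 RPKM, and for both the counting interval of the ratio included 1.

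The span of the SR genes was given by Srsf4, at 33.9 RPKM in WT and 50.4 RPKM in Tg, and by Srsf10, at 69.9 and 54.5 RPKM, a ratio of 0.780. Srsf10 is one of 3 splicing genes whose transcripts lay on both sides of equal values, the others being Lsm10 and Hnrnpd. Its second transcript was at 29.9 RPKM in WT and 32.8 RPKM in Tg, a log2(Tg/WT) of 0.13 where the first had -0.36. For Srsf7 the transcript with the highest level is annotated as noncoding, at 68.3 and 59.1 RPKM. Of the 21 measured genes with several transcripts, 16 had transcripts within 0.2 of each other in log2(Tg/WT), such as Hnrnpf, whose 7 transcripts ran from 0.07 to 0.15.

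Among the 7 families, the hnRNP proteins, taken by the Hnrnp symbol alone, had the most uniform direction. This was not particular to them, since 16 of 17 genes of the other snRNP and tri-snRNP list, given below, were also larger in Tg. Of 20 other hnRNP-type and splicing regulators 13 were larger and 7 smaller. All 20 genes were measured, 18 had the larger value in Tg, each of these 18 with a counting interval above 1, and none was past 1.5-fold as deposited (2 higher after rescaling to 1 sum). The median log2(Tg/WT) was 0.31, within a range of -0.39 to 0.52, and the summed RPKM in Tg was 1.19 times that in WT. The median stayed between 0.27 and 0.43 under each alternative scaling and filter tried.

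Hnrnpk, which binds C-rich stretches, led the family at 424 RPKM in WT and 516 RPKM in Tg, followed by Hnrnph1, which binds G-rich stretches, at 355 and 366 RPKM. Hnrnpa2b1 was at 304 and 401.1 RPKM, a ratio of 1.32 (interval 1.28 to 1.36). Hnrnpu, a nuclear scaffold protein, stood at 237 and 301 RPKM, from 25290 and 34058 fragments, a ratio of 1.27. Hnrnpll, which silences variable exons of Ptprc in T cells, was at 36.9 and 48.1 RPKM, a ratio of 1.30 (interval 1.22 to 1.39).

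The 2 hnRNP genes with smaller values in Tg were the relatives Hnrnpd (AUF1), which binds AU-rich elements in mRNA, and Hnrnpdl. Hnrnpdl was at 148 RPKM in WT and 112 RPKM in Tg, a ratio of 0.761 (interval 0.732 to 0.791). Hnrnpd stood far lower, at 9.02 and 7.91 RPKM, and 2 of its 4 transcripts lay above equal values, up to 0.06 on the log2 scale. Hnrnpdl was 16.4 times Hnrnpd in WT and 14.2 times in Tg. The levels of the family spanned 63.4-fold in WT and 67.8-fold in Tg, from Hnrnpk to Hnrnpr. Hnrnpa1 and Hnrnpa3 have many processed copies, so their levels are uncertain.

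The Sm and LSm transcripts, most of them short, were then set against the SR and hnRNP genes. The 15 genes of the Sm core and LSm ring had a median log2(Tg/WT) of -0.09, with 1 higher and 2 lower past 1.5-fold, and the 30 SR and hnRNP genes had 0.23, with none past it and 23 with the larger value in Tg. The difference of the medians was -0.32. It was -0.15 when the Snrp and Lsm genes under 1000 nt were set against the SR and hnRNP genes, and -0.47 at a mean of at least 10 RPKM. By the recovered lengths, some of them chosen among several possible ones, the transcripts also differed. The median was 868 nt against 2603 nt, although 6 of the 15 had 1000 nt or more. No test of this difference was possible.

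Across all measured genes, short transcripts had smaller values in Tg. Of the 1095 measured genes under 1000 nt, 30.6% were lower past 1.5-fold and 8.31% were higher, and the median log2(Tg/WT) was -0.24, whereas of the 10000 genes of 1000 nt or more 8.84% were lower and 7.68% higher, with a median of 0.05. Of the 11 splicing genes under 1000 nt by the lengths used here, 2 were lower and 1 was higher, and their median was 0.08. Of the 52 longer ones 1 was lower and 1 higher, with a median of 0.23. In both length classes the median of the splicing genes was thus larger than that of all genes. Sf3b5 was counted among the longer ones at a chosen length of 3670 nt. Its gene spans only 13008450 to 13009183 on chromosome 10, so its transcript is likely under 1000 nt.

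Within the Sm core and LSm ring, the 9 genes under 1000 nt had a median of -0.09 and the 6 longer ones -0.15. For Snrpd2, Snrpd3 and Snrpg, counted as longer, the length was chosen among several possible ones. So were the lengths of Snrpb2 and Sf3b5, used in the values below. When the running median of log2(Tg/WT) over length was subtracted, the difference between Sm and LSm and SR and hnRNP genes was -0.11, Snrpe and Lsm5 came to -0.36 and -0.50, inside 1.5-fold, and Snrpb2 kept -0.77. Over the 63 genes the rank correlation (Spearman) of log2(Tg/WT) with length was 0.05, over the 15 Sm and LSm ring genes 0.28, over the 30 SR and hnRNP genes -0.30 and over all measured genes 0.14. All points come from the same pair of libraries. Another family of mostly short transcripts, the 79 measured cytosolic ribosomal protein genes (median length 792 nt), had a median of -0.37 with 32 lower past 1.5-fold. The 78 mitochondrial ones were longer, with a median length of 1204.5 nt, and had a median of 0.06 with 6 lower. The part of transcript length in the differences above was not tested beyond these values.

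**Figure D3:**
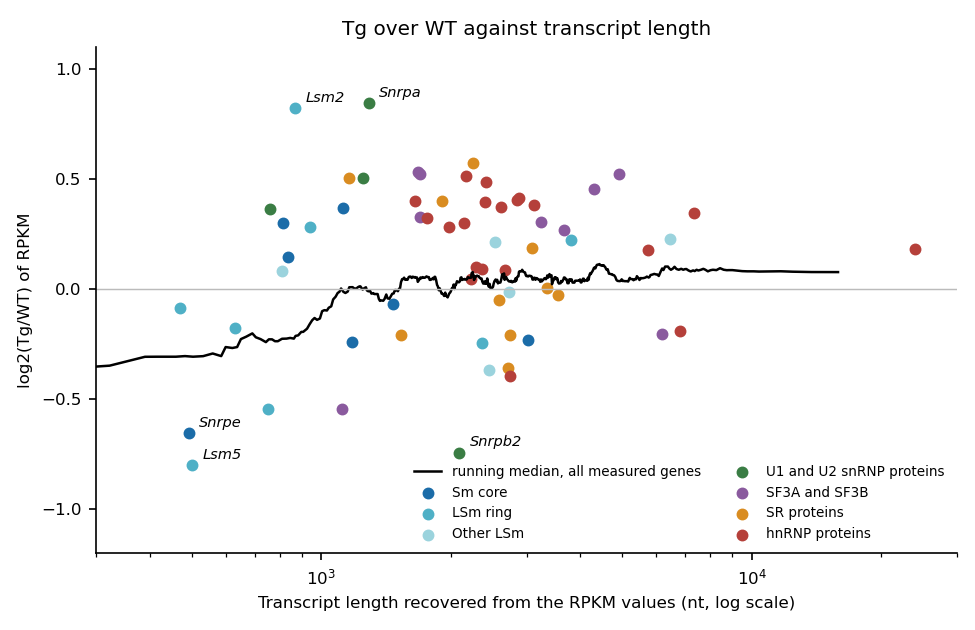
log2(Tg/WT) against transcript length in nt (log axis) for the measured splicing genes, coloured by family, with the running median over all measured genes as a line. Lengths are as recovered, and some were chosen among several possible ones. The line lies below 0 for the shortest transcripts, and Snrpe and Lsm5 lie below the line while Lsm2 lies above it.

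As the transgene encodes miR-146a, the 3′ UTRs of the splicing genes were searched for its seed. The mature sequence in RefSeq (GRCm38.p6, chr11:43374435-43374456, - strand) is given with the seed, bases 2 to 8, in capitals.
mmu-miR-146a-5p: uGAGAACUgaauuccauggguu
The 8-base match is AGTTCTCA and the 7-base matches are AGTTCTC and GTTCTCA, read on the mRNA strand.

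Of the 62 measured splicing genes with an annotated 3′ UTR, 12 (19.4%) held a match of 7 or 8 bases and 5 (8.06%) the match of 8, beside 18.0% and 3.86% of 10225 measured genes. The 5 matches of 8 bases are shown in the mRNA sense with the match in capitals and its place in GRCm38, all of them in the last exon.
Hnrnpd, chr5:99961186-99961193, - strand, exon 9 of 9: gtttaattctgAGTTCTCAttaaaagaatt
Hnrnpa2b1, chr6:51461002-51461009, - strand, exon 10 of 10: actatacatttAGTTCTCAttcaatactaa
Lsm6, chr8:78805833-78805840, - strand, exon 5 of 5: ctcaaccttggAGTTCTCAtagccaatcta
Lsm11, chr11:45931847-45931854, - strand, exon 4 of 4: aaagaagcaggAGTTCTCAgaggaacacgt
Srsf7, chr17:80201540-80201547, - strand, exon 9 of 9: gaatggactgaAGTTCTCAagttcacccgt

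None of the 5 genes past 1.5-fold held a match. Among the genes with the 8-base match, the values given above were larger in Tg for Hnrnpa2b1, Lsm6 and Lsm11 and smaller for Hnrnpd and Srsf7. The Srsf7 value is that of a transcript annotated as noncoding, while its 3′ UTR is that of the GENCODE annotation. The 5 listed Srsf7 transcripts had log2(Tg/WT) from -0.21 to -0.07. The median log2(Tg/WT) was 0.18 with a match and 0.28 without over the splicing genes, and 0.03 and 0.04 over all genes searched. The 7-base matches lay in Hnrnpu, Hnrnpr, Hnrnpa0, Hnrnpul2, Srsf6, Lsm14b and Lsm1. A match is a description and shows no binding.

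Genes that work with these proteins but carry other symbols were counted from lists of known subunits. Of 17 measured genes of the other snRNP and tri-snRNP proteins, none was past 1.5-fold, 16 had the larger value in Tg and the median log2(Tg/WT) was 0.25. Snrnp70, the U1-70K protein, stood at 303 RPKM in WT and 307 RPKM in Tg, and Snu13, which binds the U4 RNA, at 115 and 161 RPKM. Of 9 branch point and 3′ splice site factors and 18 genes of the Prp19 complex and the catalytic steps none was past the mark, with medians of 0.29 and 0.13. In the former list Dhx15, a helicase, stood at 95.3 and 87.2 RPKM and U2af2, which binds the polypyrimidine tract, at 74.8 and 99.2 RPKM. In the latter Cwc15 stood at 98.3 and 99.6 RPKM and Cdc5l at 55.6 and 60.4 RPKM.

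The minor spliceosome removes a small class of introns with the U11 and U12 snRNPs. Of its 9 measured genes 1 was lower, Rnpc3, which binds the U12 RNA, at 18.6 RPKM in WT and 11.7 RPKM in Tg, and the median was 0.02. Its most abundant genes, Zcrb1 at 49.6 and 38.0 RPKM and Snrnp48 at 40.3 and 30.3 RPKM, lay within 1.5-fold. The SMN complex loads Sm rings onto RNA, and of its 12 measured genes 1 was higher, Gemin4, at 3.61 and 5.76 RPKM, with a median of 0.17. Strap stood at 63.9 and 49.3 RPKM there and Clns1a, a chaperone of Sm proteins, at 28.3 and 33.5 RPKM. Of 4 measured exon junction genes Eif4a3, the RNA-clamping core subunit, was higher, at 75.1 and 117 RPKM, and Casc3 stood at 31.1 and 32.5 RPKM.

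Kinases and relatives of SR proteins had a median of 0.01 over 13 genes. The kinase Clk1, which phosphorylates SR proteins, was lower, at 130 RPKM in WT and 83.5 RPKM in Tg, and its relative Clk4 lay within the mark at 125 and 91.0 RPKM. The SR-related Tra2b was at 196 and 168 RPKM and the kinase Clk3 at 179 and 174 RPKM. None of 20 other hnRNP-type regulators, with a median of 0.10, and none of 7 decapping partners of the cytoplasmic LSm ring, with a median of 0.01, was past 1.5-fold. In the first of these lists 13 genes had the larger value in Tg and 7 the smaller, and Ewsr1 stood at 178 and 237 RPKM. In the second the exonuclease Xrn1 stood at 25.9 and 30.2 RPKM and the helicase Ddx6 at 27.2 and 25.5 RPKM.

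**Figure D4:**
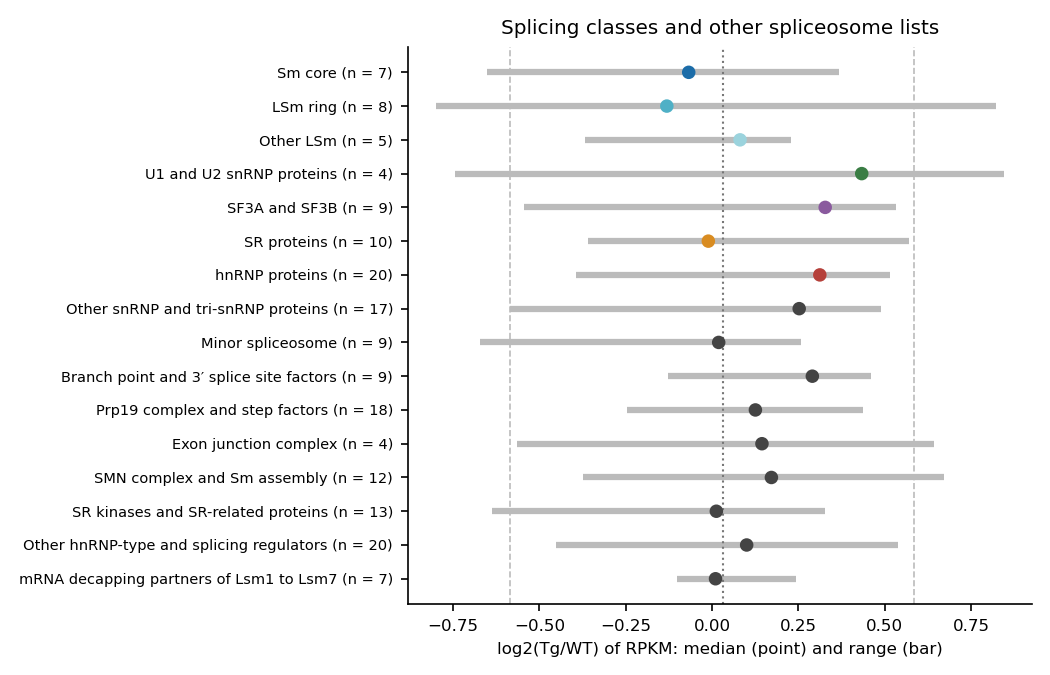
Median log2(Tg/WT) as a point and the range over measured genes as a bar, for the 7 splicing families and 9 lists of partner genes. The median of the U1 and U2 proteins lies highest, at 0.43, and those of the SF3A and SF3B, hnRNP, branch point and other snRNP lists lie between 0.25 and 0.33. Those of the Sm core, LSm ring and SR proteins (-0.01) lie below 0.

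Markers of the cells of the thymus moved beside these values. All 12 thymocyte markers were measured in the tissue, with a summed level of 4555 RPKM in WT and 4636 RPKM in Tg, 1 marker higher (Ptcra) and a log2(Tg/WT) of 0.18 at the median, with 9 larger and 3 smaller in Tg. Cd4 stood at 414 RPKM in WT and 443 RPKM in Tg and Rag1 at 413 and 514 RPKM, whereas Cd3g stood at 1023 and 692 RPKM and Cd3d at 428 and 328 RPKM. The 10 markers of dividing cells were all higher, with a median of 1.69 and a sum of 252 RPKM in WT and 732 RPKM in Tg. The 10 genes listed for later thymocyte stages, of which Cd69 and Itm2a mark positive selection rather than mature cells, were all lower, with a median of -1.13 and sums of 1473 and 595 RPKM. Neutrophil markers, 6 of 8 measured, were all lower, with a median of -1.75 and sums of 547 and 138 RPKM, as were the 4 of 7 erythroid markers that were measured, with a median of -1.04 and sums of 170.3 and 93.1 RPKM. Of 5 B cell markers 4 were measured and 1 was lower, at sums of 28.4 and 20.9 RPKM, and of 6 epithelial markers 2 were measured, at sums of 5.03 and 5.83 RPKM, and none was past 1.5-fold. The markers below the minimum, among them Pax5, Foxn1 and Aire, were under 1 RPKM in both libraries. A transcript listed at 1 read was taken as 0 fragments, so a value above 0 does not show detection. In a whole tissue, fewer cells of a type and less RNA per cell cannot be told apart, and the part of these cell types in the splicing gene values was not tested.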

How the data were processed

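Thymus RNA of 1 WT and 1 Tg pool was compared. The authors enriched polyadenylated RNA on oligo(dT) beads, prepared libraries for a HiSeq instrument, mapped the reads to build mm10, counted those with a unique position and deposited RPKM values for 30533 RefSeq transcripts. Their text names a fragment-based unit while the file headers name RPKM, and neither a version of the mapper nor a strand setting is given in the sources used here, so overlapping genes on opposite strands may share reads.

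Symbols came from RefSeq and GENCODE M21 tables for 30188 transcripts (98.9%). Whole reads were recovered from 100% of the deposited RPKM values at a relative tolerance of 1e-12, with totals of 29045338 and 30793392 reads, and 2 reads were taken as 1 fragment because 98.3% (WT) and 98.1% (Tg) of the counts in 12448 transcripts of settled length were even. A count of 0 on a transcript of 1 kb would allow up to 0.207 RPKM in WT and 0.195 RPKM in Tg (3 fragments). Of the 63 measured genes, 46 had 1 possible length near the annotated length (within 1.5 times), 16 several and 1 (Hnrnpa3) none. For these 17 genes the length class, the fragments, the intervals and the length-subtracted values rest on a chosen length. Snrpb2, Snrpd2, Snrpd3, Snrpg and Sf3b5 are among them, and the length taken for Sf3b5, 3670 nt, exceeds the span of its gene. No count test was run, because 1 library per genotype allows no comparison of genotypes.

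Ratios were taken from the deposited values without an added pseudocount. A transcript listed at 1 read was taken as 0 fragments, so the lowest deposited values do not show detection. Values are named for each gene past 1.5-fold, the 4 most abundant of each family, all Sm core and LSm ring genes, Hnrnpll, and the 2 most abundant and the called genes of each partner list. Values of some genes that this rule selects are not reported here. Genes named beyond this were chosen after their values were seen, as was the promoter motif. The splicing genes and all lists were chosen with earlier results of these data known. Promoters and the miRNA came from RefSeq (GRCm38.p6), and 3′ UTRs from the exons after the stop codon in GENCODE. The alternatives were pseudocounts of 1 and 0.1 RPKM, minimum means of 5 and 10 RPKM and none, marks of 1.25-fold and 2-fold, median centring, upper quartile scaling, rescaling to 1 sum, sums or means over transcripts, subtraction of a running median over length and other choices of the genes compared. Python 3.11.15 was used with numpy 2.4.6, pandas 2.3.3, scipy 1.17.1 and matplotlib 3.10.9, and the computation was tested on simulated data.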

Additional observations from a re-analysis of the deposited data

How the results depend on the processing

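No paired analysis was possible because there was 1 library per genotype, and for the same reason no library could be left out. With both libraries rescaled to 1 sum of RPKM, the median log2(Tg/WT) of all measured genes moved from 0.03 to 0.15, those of the Sm core and SR genes turned to 0.053 and 0.11, and those of the LSm ring, other LSm, U1 and U2, SF3A and SF3B, and hnRNP genes came to -0.0099, 0.20, 0.55, 0.45 and 0.43, with 10 genes higher past 1.5-fold instead of 2 and 2 lower instead of 3. After subtraction of the running median over length, the LSm ring turned to 0.13, U1 and U2 came to 0.55, the difference between Sm and LSm ring and SR and hnRNP genes to -0.11, and 1 gene was lower instead of 3 and 3 higher instead of 2. At a mean of at least 10 RPKM the difference was -0.47 and 1 gene was higher, since Lsm2 was no longer tested. Without a filter 5 genes were lower, with Snrpn and Srsf12 added. The mark below 1.5-fold gave 23 higher and 8 lower, and the mark of 2-fold gave 0 and 0. The difference was -0.20 with all Snrp and Lsm genes and -0.15 with those under 1000 nt. The median of the other LSm genes turned from 0.08 to -0.015 with sums or means over transcripts and at a mean of at least 10 RPKM. The remaining class medians and counts kept their direction and moved by less than 0.1 on the log2 scale or not at all in count. Of single genes, 45 of 63 left their counting interval under the rescaling and 17 under the length subtraction, and 5 and 4 of the 63 changed side. Depth limits mostly Lsm10 and Lsm2, at 74 and 80 fragments in WT, and the spread between animals is unknown.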

Other observations

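Symbols that begin like the splicing families but name other genes were left out of the counts. Hnrnpa1l2-ps2, a pseudogene by its symbol, was listed at 37.5 RPKM in WT and 44.4 RPKM in Tg, from 635 and 796 fragments, beside 105 and 131 RPKM for Hnrnpa1 itself.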
